A study of Mus musculus with 2 samples.

Results

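Oxidative phosphorylation genes of the nuclear genome were followed in mouse bone marrow by single-cell RNA sequencing. The members were all genes listed in both libraries' tables whose symbols begin with Nduf, Sdha, Sdhb, Sdhc, Sdhd, Uqcr, Cox4, Cox5, Cox6, Cox7, Cox8 or Atp5 and that reached 10 CPM (counts scaled to a common library total) over all barcodes of either library. These were 82 genes, of 27842 genes listed in either table. Of 92 matching symbols, 10 stayed below that level, and 8 symbols that mark pseudogenes (-ps) were left out. Just outside the threshold were Ndufb6, with 9.74 CPM in the control and 4.96 CPM in the T1D library, and Ndufaf1, with 7.74 and 6.86 CPM. Just inside were Ndufaf2, with 10.5 and 6.69 CPM, Cox6b2, with 9.24 and 10.8 CPM, and Cox6a2, with 11.6 and 0.538 CPM. Ndufaf2 and Cox6a2 thus became members through the control library alone, and Cox6b2 through the T1D library alone.

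The study set bone marrow of C57/BL6 mice made diabetic with streptozotocin, which destroys the insulin-producing beta cells, beside marrow of mice given only the citrate solution. The marrow came from femurs and tibias and passed through collagenase I and dispase II digestion and red blood cell lysis. There was 1 library for each group, called control (normal blood sugar) and T1D (high blood sugar), and how many mice gave cells to a library is not given in the sources used here. With 1 library per group there is no replicate check: no test of the groups was possible, the 95% intervals below cover counting error only, and "higher" and "lower" describe these 2 libraries. Streptozotocin itself and high blood sugar cannot be told apart in this design.

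Oxidative phosphorylation is the last stage of respiration in the mitochondrion. Complex I takes electrons from NADH, complex II takes them from succinate, complex III passes them to cytochrome c, and complex IV hands them to oxygen. Complexes I, III and IV pump protons across the inner membrane, and ATP synthase lets the protons return through its membrane part, Fo, while its catalytic head, F1, makes ATP. Most subunits are encoded in the nucleus and imported, and a few are encoded by mitochondrial DNA. In marrow, red cell precursors need mitochondria for heme synthesis, and mature neutrophils are known to hold few mitochondria and to live largely on glycolysis.

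The 82 members comprised 35 subunits of complex I with 5 of its assembly factors, 4 subunits of complex II with 1 assembly factor, 8 of complex III, 14 of complex IV, 5 of F1 and 10 of Fo and the stalk that joins it to F1. Complex IV includes Ndufa4, first described with complex I, and Cox7a2l, a factor of respiratory supercomplexes.

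Promoter sequences are shown for the 3 genes of the Fo c subunit and for the pair Cox6b1 and Cox6b2, because the members of each group made closely related proteins and yet differed in level by library or by cell type. They are the 250 bases before the gene's start in RefSeq on GRCm38.p6, a later build than the mm9 the submitters' processing notes name. All 5 lie on the minus strand, at chr11:96075632-96075881 for Atp5g1, chr15:102671048-102671297 for Atp5g2, chr2:73911327-73911576 for Atp5g3, chr7:30626115-30626364 for Cox6b1 and chr7:4753095-4753344 for Cox6b2. Each is printed 5′ to 3′ in the direction of the gene. Capitals mark every match, on either strand, to CCAAT (the CCAAT box, read as ATTGG on the other strand), GCGCA and GCGC joined by any 1 base (a core of the NRF1 site) or CCGGAAG (an ETS site, read as CTTCCGG on the other strand).
Atp5g1: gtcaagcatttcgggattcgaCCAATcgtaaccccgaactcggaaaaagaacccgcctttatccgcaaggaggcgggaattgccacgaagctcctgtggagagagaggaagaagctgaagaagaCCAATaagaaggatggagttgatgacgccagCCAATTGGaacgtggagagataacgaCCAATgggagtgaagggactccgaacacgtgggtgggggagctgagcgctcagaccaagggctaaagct
Atp5g2: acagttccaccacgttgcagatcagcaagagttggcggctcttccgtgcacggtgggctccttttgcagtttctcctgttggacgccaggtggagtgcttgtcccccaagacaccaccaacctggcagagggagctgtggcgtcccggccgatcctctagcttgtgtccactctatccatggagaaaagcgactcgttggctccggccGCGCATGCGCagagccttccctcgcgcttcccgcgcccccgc
Atp5g3: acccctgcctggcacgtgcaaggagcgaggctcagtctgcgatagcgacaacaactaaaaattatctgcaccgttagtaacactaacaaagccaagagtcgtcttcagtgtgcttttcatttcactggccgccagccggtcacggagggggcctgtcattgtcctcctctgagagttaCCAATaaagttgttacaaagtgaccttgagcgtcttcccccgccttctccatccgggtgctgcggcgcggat
Cox6b1: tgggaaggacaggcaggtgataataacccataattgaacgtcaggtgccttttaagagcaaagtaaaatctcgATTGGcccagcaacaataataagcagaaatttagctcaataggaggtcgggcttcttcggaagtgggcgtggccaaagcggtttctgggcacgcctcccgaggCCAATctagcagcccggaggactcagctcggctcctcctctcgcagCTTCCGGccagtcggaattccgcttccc
Cox6b2: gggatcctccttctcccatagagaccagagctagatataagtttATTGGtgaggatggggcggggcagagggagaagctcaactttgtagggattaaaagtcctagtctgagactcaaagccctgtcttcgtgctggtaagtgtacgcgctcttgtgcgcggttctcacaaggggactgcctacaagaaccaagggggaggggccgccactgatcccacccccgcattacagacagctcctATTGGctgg
Atp5g1 held 5 CCAAT matches, of which an overlapping pair forms the run CCAATTGG, while Atp5g3 held 1 and Atp5g2 none. Atp5g2 alone of the 5 held an NRF1 match. Cox6b1 held 2 CCAAT matches and 1 ETS match, and Cox6b2 held 2 CCAAT matches. Promoters were matched for 70 of the 82 members. The NRF1 letters were in 13 of these (18.6%), against 6.48% of 14385 promoters of genes in the tables, and the ETS letters in 12 (17.1%), against 11.1%. CCAAT was in 30 (42.9%), against 35.4%, and AAGATGG, a core of the YY1 site, was in none, against 4.24%. Median GC content was 57.6% in the members' promoters and 58% in those of genes in the tables. A match is a stretch of letters and no measurement of binding.

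The control library held 12803 cells after filters and 57296558 counts, and the T1D library 15579 cells and 51680532 counts. Median counts per cell were 3633 and 2757. Ribosomal RNA took 30.3% of control and 34.0% of T1D counts. Cells were grouped into classes by marker genes, and each class name carries the sense of "like". In 10 of 10 classes compared, the T1D library had the lower median count per cell and the higher ribosomal RNA share. The part of depth and of ribosomal RNA in the differences below was not tested beyond the settings in the closing section. The libraries shared 253 barcode sequences.

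Summed over all kept cells, the members stood lower in the T1D library. They held 7816 CPM in the control and 6299 CPM in the T1D library, or 0.782% and 0.630% of counts, a ratio of 0.806 (0.802 to 0.809). The ratio was below 1 for 72 members and above 1 for 10. The median log2 ratio of T1D over control, with 5 CPM added to both, was -0.31 over the members and -0.11 over all 7372 genes of at least 10 CPM in either library, of which 66.0% were below 0. Scaling by trimmed means (TMM) moved the median of all genes from -0.11 to 0.01 and that of the members to -0.19, so that the members stayed lower relative to all genes. Values over all cells also mix classes in unequal parts. Mature neutrophils were 2226 of 12803 control and 5071 of 15579 T1D cells, and pro- or pre-B cells 1452 and 0. The closing section gives the range with equal class weights and other settings.

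The counting interval of the ratio lay below 1 for 70 members, 85.4% of them, and for 55.1% of all genes. It lay above 1 for 5 members, 6.10%, and for 25.9% of all genes. The members were counted more deeply than the usual gene, with a median of 73.9 against 34.0 CPM in the control library, and a deeper gene has a narrower interval. A rule of size was also used: the log2 ratio had to reach 1 in either direction, the higher level 50 CPM, and the interval had to leave out 1. No member passed it over all cells, where 0.963% of all genes passed as lower and 0.353% as higher. The lower levels of the members were thus many and small.

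**Figure D1:**
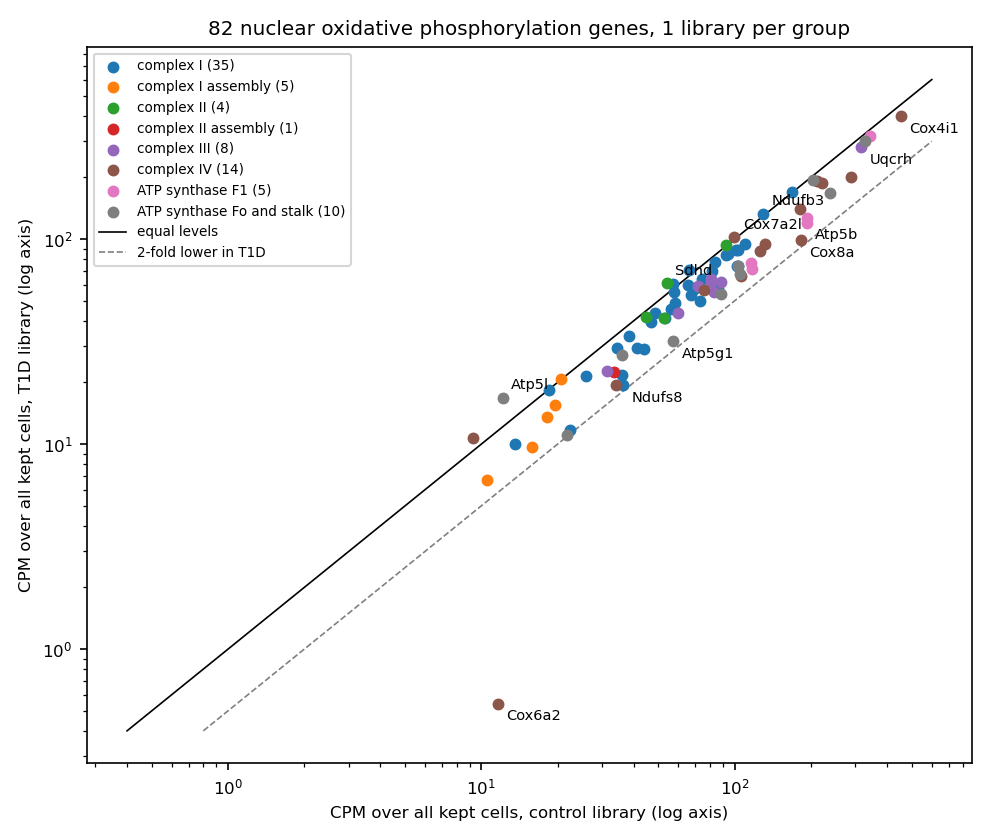
Level of each of the 82 members over all kept cells, in CPM on log axes, with the control library on the x axis and the T1D library on the y axis; colours mark the complexes, the solid line equal levels and the dashed line levels 2-fold lower in T1D. Of the 82 points, 72 lie below the solid line, and Cox6a2, at 11.6 and 0.542 CPM, lies far below the rest. Cox6a2 became a member through the control library alone.

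Complex I was lower as a whole and held members on both sides. Its 35 subunits summed to 2359 CPM in the control and 2009 CPM in the T1D library, a ratio of 0.852 (0.845 to 0.858), with 31 members below 1 and 4 above. Ndufs8, an iron-sulfur subunit of the arm that carries electrons to ubiquinone, stood at 36.4 and 19.3 CPM, 1.88-fold lower in T1D (1.75 to 2.03). Ndufs7, another iron-sulfur subunit of that arm, named here after its values were seen, stood at 73.3 and 49.8 CPM.

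Other core subunits of complex I differed little between the libraries. Ndufs1, the largest iron-sulfur subunit, stood at 66.0 and 70.3 CPM, a ratio of 1.07 (1.02 to 1.12). Ndufs3, another core subunit, also chosen after its values were seen, stood at 48.5 and 43.7 CPM. Among accessory subunits, Ndufv3 stood at 57.1 and 60.5 CPM, a ratio of 1.06 (1.01 to 1.11), and it was lower, with a log2 ratio of -0.0046, when each class was given the same weight in both libraries. Ndufb3 stood at 130 and 133 CPM (0.993 to 1.06 for the ratio), and Ndufb7, the complex I member with the most counts, at 169 CPM in both. The complex I subunits named here therefore ranged from 1.88-fold lower to slightly higher, and the higher ones were within 1.07-fold of the control.

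The 5 assembly factors of complex I summed to 84.8 and 66.4 CPM, a ratio of 0.783 (0.750 to 0.818). Ndufaf7, a methyltransferase that acts early in assembly, stood at 20.7 and 20.8 CPM, and Ndufaf2 at 10.5 and 6.71 CPM. After thinning each cell to 1000 counts, Ndufaf7 was lower, with a log2 ratio of -0.12.

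Complex II, also succinate dehydrogenase of the citric acid cycle, was close to equal in the libraries. Its 4 subunits summed to 244 and 238 CPM, a ratio of 0.975 (0.952 to 0.999), and this small difference turned to higher in T1D under TMM scaling (log2 ratio 0.10) and 4 other settings. Sdhd, a membrane anchor, stood at 54.1 and 61.1 CPM, 1.13-fold higher in T1D (1.08 to 1.19). Sdha, the flavoprotein that oxidizes succinate, stood at 92.6 and 94.1 CPM (0.977 to 1.06 for the ratio).

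The other subunits, named after their values were seen, went the other way. Sdhb, the iron-sulfur subunit, stood at 52.8 and 41.2 CPM, a ratio of 0.780 (0.738 to 0.825). Sdhc, the second anchor, stood at 44.9 and 41.9 CPM, a ratio of 0.934 (0.882 to 0.990). Sdhaf2, which helps to attach flavin to Sdha, stood at 33.4 and 22.4 CPM, a ratio of 0.672 (0.624 to 0.723). The 4 subunits of this complex were thus split, 2 on each side.

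Complex III was lower in all 8 subunits over all cells. It summed to 813 and 649 CPM, a ratio of 0.799 (0.788 to 0.810). Uqcrh, the hinge protein that helps cytochrome c to dock and the member of this complex with the most counts, stood at 317 and 281 CPM, a log2 ratio of -0.17. The small subunits Uqcrb and Uqcrq, chosen after their values were seen, stood at 83.0 and 55.5 CPM and at 88.6 and 61.7 CPM.

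Complex IV was lower in 12 of 14 members. It summed to 2130 and 1652 CPM, a ratio of 0.775 (0.769 to 0.782). Cox8a, a small membrane subunit, stood at 183 and 99.0 CPM, 1.84-fold lower in T1D (1.78 to 1.91), and had the lowest log2 ratio (-0.85) of members of at least 50 CPM. Cox7a2 stood at 106 and 65.9 CPM, 1.61-fold lower (1.54 to 1.68), and Cox6a1, the widely expressed form of subunit VIa, at 287 and 200 CPM. Cox4i1, the usual form of the regulatory subunit IV, differed less, at 452 and 396 CPM, a ratio of 0.878 (0.862 to 0.894). Cox7a2l stood at 99.8 and 102 CPM (0.984 to 1.06 for the ratio), and its log2 ratio was 0.03 as measured and -0.04 after thinning.

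ATP synthase had the lowest ratio of sums in its head. The 5 F1 subunits, all lower, summed to 962 and 713 CPM, a ratio of 0.742 (0.732 to 0.751). Atp5b, the beta subunit that carries the catalytic sites, stood at 192 and 120 CPM, 1.60-fold lower (1.55 to 1.65). Atp5e, the epsilon subunit of the central stalk, stood at 117 and 71.4 CPM, 1.64-fold lower (1.57 to 1.71). Atp5a1, the alpha subunit that alternates with beta in the ring of the head, stood at 344 and 318 CPM, a log2 ratio of -0.11 that became 0.023 under TMM scaling. Alpha and beta thus differed unequally between the libraries.

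In Fo and the stalk, 9 of 10 members were lower, and the sum was 1190 and 949 CPM, a ratio of 0.797 (0.788 to 0.806). Atp5o, which ties the outer stalk to the head, stood at 88.4 and 53.9 CPM, 1.64-fold lower (1.57 to 1.72). Atp5h, the d subunit of the outer stalk, stood at 238 and 168 CPM, and Atp5j, its F6 subunit, at 105 and 67.9 CPM. Atp5f1, the b subunit of that stalk, stood at 326 and 303 CPM, a log2 ratio of -0.10 that became 0.028 under TMM scaling. Atp5l, the g subunit of the membrane part, was sparsely counted, at 12.2 and 16.9 CPM (697 and 871 counts), 1.39-fold higher in T1D (1.25 to 1.53). How reads that match near-identical copies elsewhere in the genome were counted is not given in the sources used here, which leaves the levels of genes with processed pseudogenes uncertain.

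The c subunit, which forms the rotating ring of Fo, is made from Atp5g1, Atp5g2 and Atp5g3, whose mature proteins are the same. Atp5g1 stood at 57.3 and 31.8 CPM, 1.80-fold lower in T1D (1.70 to 1.91). Atp5g2, named after its values were seen as is Atp5g3, stood at 21.7 and 11.1 CPM, a ratio of 0.510 (0.461 to 0.564). Atp5g3 stood at 203 and 195 CPM, a ratio of 0.960 (0.935 to 0.986). The ratios of Atp5g1 and Atp5g2 were lower than that of Atp5g3 beyond counting error.

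Of the counts of these 3 genes, not corrected for length, Atp5g3 held 72.0% in the control and 82% in the T1D library. Its share was higher in T1D in each of the 10 classes compared, and it went from 70.0% to 81.1% in B cells, from 71.7% to 82% in monocytes, from 70.7% to 79.0% in erythroid cells and from 82% to 88.4% in mature neutrophils. The smaller share of Atp5g1 did not hold in every class: in basophils or mast cells, with 22 and 13 counts, it was 13.7% and 14.6%. A share within the family does not depend on the scaling of the libraries. Atp5g2 also differed by class, and in T or NK cells, with 29 and 33 counts, its share was 9.35% and 10.7%.

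The members' level set the classes far apart in both libraries. Erythroid cells, which passed 8 of 9 markers, were highest in both, at 15538 CPM in the control and 11894 CPM in the T1D library. Stem or multipotent progenitors were next, at 13591 and 11812 CPM, and in the T1D library their interval overlapped that of erythroid cells. That class passed 4 of 8 of its own markers and 5 of 6 markers of granulocyte-monocyte progenitors, a larger share of the latter. Granulocyte-monocyte progenitors followed at 11750 and 10466 CPM, and monocytes stood at 10709 and 8839 CPM. Megakaryocytes overlapped granulocyte-monocyte progenitors in the control library, at 11353 CPM, and monocytes in the T1D library, at 8777 CPM.

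The lymphoid and later myeloid classes lay lower. Plasmacytoid dendritic cells stood at 8644 and 7268 CPM, and macrophages or conventional dendritic cells at 7309 and 5753 CPM. Pro- or pre-B cells, which were a class in the control library only, stood at 7123 CPM and overlapped macrophages or conventional dendritic cells. Basophils or mast cells stood at 6492 and 4973 CPM, T or NK cells at 6022 and 4839 CPM, immature neutrophils at 5431 and 4908 CPM, B cells at 5242 and 3937 CPM and plasma cells at 4342 and 4277 CPM. In the T1D library the intervals of basophils or mast cells, immature neutrophils and T or NK cells overlapped in turn.

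Mature neutrophils were lowest in both libraries, at 3045 and 3010 CPM. The median cell gave 0.280% and 0.272% of its counts to the members in this class, against 1.43% and 1.10% in erythroid cells. The highest class held 5.10 times the level of the lowest in the control and 3.95 times in the T1D library. Mature neutrophils were the lowest class for 57 members in the control and 46 in the T1D library. Erythroid cells were the highest class for 46 members in the control and 29 in T1D, where stem or multipotent progenitors were highest for 28. Erythroid cells had a median of 7540.5 and 5081 counts per cell and mature neutrophils 2573.5 and 2165. With each cell thinned to 1000 counts, the ratio of the highest to the lowest class was 4.92 and 3.83.

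**Figure D2:**
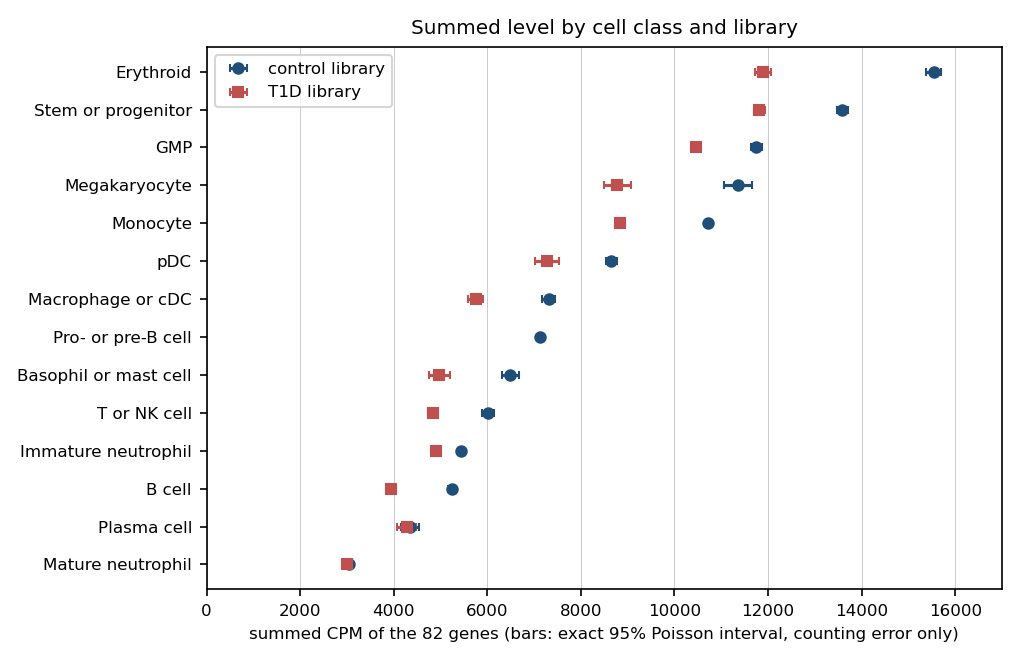
Summed level of the 82 members in each class, in CPM, with control and T1D shown as separate points and bars for 95% Poisson intervals (counting error only). Erythroid cells are highest at 15538 and 11894 CPM and mature neutrophils lowest at 3045 and 3010 CPM.

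Within classes, the members were lower in T1D in most but not in mature neutrophils. Of the 10 classes with at least 100 cells in both libraries, the median log2 ratio of the members was below that of all genes in 9. The medians of members and of all genes were -0.46 and -0.03 in erythroid cells, -0.37 and -0.03 in macrophages or conventional dendritic cells and -0.34 and -0.09 in basophils or mast cells. They were -0.33 and -0.09 in B cells, -0.29 and -0.06 in monocytes and -0.28 and 0.00 in T or NK cells. They were -0.26 and -0.01 in stem or multipotent progenitors, -0.17 and -0.03 in granulocyte-monocyte progenitors and -0.11 and 0.01 in immature neutrophils. In mature neutrophils they were 0.07 and 0.04. The macrophage or conventional dendritic cell class had 8 of its 11 markers lower in T1D, with sums of 9803 and 4702 CPM and none at 0, and its largest cluster, with 256 and 191 cells, also passed 4 of 7 monocyte markers. The part of these in its value was not tested.

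Counts of members with an interval below 1 depend on how deeply a class was counted, and they are given beside the share of all genes in the same class. In erythroid cells the interval was below 1 for 54 members (65.9%) and for 16.5% of all genes. In monocytes it was below 1 for 56 (68.3%) and for 35.5% of all genes. In stem or multipotent progenitors these were 45 (54.9%) and 19.6%, in B cells 38 (46.3%) and 20.2%, and in T or NK cells 32 (39.0%) and 14.1%. Shares of members in these 5 classes exceeded the background.

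In granulocyte-monocyte progenitors the interval was below 1 for 36 members (43.9%) against 22% of all genes, and in immature neutrophils for 34 (41.5%) against 24%. In macrophages or conventional dendritic cells it was below 1 for 26 (31.7%) against 13.4%, and in basophils or mast cells for 20 (24.4%) against 9.77%. Mature neutrophils differed: the interval was below 1 for 21 members (25.6%) against 28.3% of all genes, and above 1 for 20 (24.4%) against 32.2%, so both shares were near or under the background. In erythroid cells, B cells and basophils or mast cells no member had an interval above 1, where the background was 14.8%, 10.6% and 6.47%. An interval above 1 was found for 13 members (15.9%) against 27.2% of all genes in immature neutrophils and for 5 (6.10%) against 22.6% in monocytes. It was found for 3 members (3.66%) in T or NK cells, granulocyte-monocyte progenitors and stem or multipotent progenitors alike, where the background was 12.6%, 16.5% and 18.9%, and for 1 (1.22%) against 11.9% in macrophages or conventional dendritic cells.

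**Figure D3:**
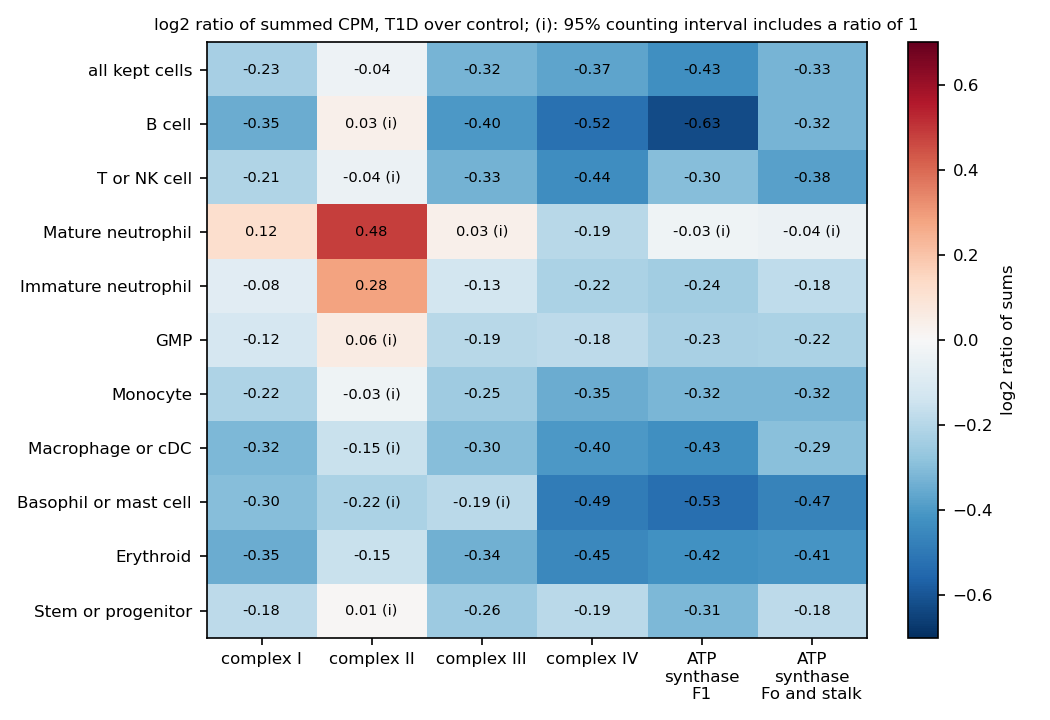
Log2 ratio of T1D over control of the summed CPM of each complex (horizontal) in all kept cells and in the 10 classes compared (vertical), with "(i)" where the counting interval includes 1. Complex IV is below 0 in every class, from -0.52 in B cells to -0.18 in granulocyte-monocyte progenitors, and complex II reaches 0.48 in mature neutrophils; the complex II value over all cells, -0.04, turns to 0.10 under TMM scaling.

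Complex by complex, complex IV was lower in T1D in 10 of 10 classes, each with an interval below 1. Its log2 ratio was lowest in B cells (-0.52), basophils or mast cells (-0.49) and erythroid cells (-0.45). In erythroid cells it stood at 4136 and 3026 CPM, a ratio of 0.732 (0.706 to 0.758), and F1 at 2080 and 1553 CPM, a ratio of 0.747 (0.710 to 0.785). Complex I of erythroid cells stood at 4426 and 3473 CPM, a ratio of 0.785 (0.759 to 0.811). Of the 9 erythroid markers, 4 were lower and 5 higher in T1D, and their sum was 28854 and 37333 CPM, none at 0; hemoglobin genes are most of it, and the part of this difference in the result was not tested.

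Mature neutrophils showed a different pattern by complex. Complex II stood at 99.1 and 139 CPM there, 1.40-fold higher in T1D (1.28 to 1.53), with 4 of 4 subunits above 1. Sdha stood at 28.8 and 45.4 CPM, 1.57-fold higher (1.33 to 1.87), and Sdhd at 30.4 and 37.8 CPM, 1.24-fold higher (1.05 to 1.48). Complex I stood at 885 and 958 CPM, 1.08-fold higher (1.05 to 1.12), and complex IV at 922 and 807 CPM, a ratio of 0.875. Complexes II and IV of 1 class thus lay on opposite sides of equality.

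The complex I sum held members on both sides in mature neutrophils: 27 were above 1 and 8 below, with an interval above 1 for 12 and below 1 for 6. Of all genes in this class, 46.2% had a log2 ratio below 0. The interval was above 1 for 32.2% of all genes and below 1 for 28.3%, so the 12 of 35 subunits above 1 were near the background. Ndufc2, an accessory subunit at the foot of the membrane arm of complex I, had the highest log2 ratio of members in this class, at 9.56 and 19.7 CPM. Cox8a had the lowest, at 133 and 71.5 CPM, a log2 ratio of -0.85. Atp5g3, chosen after its values were seen, stood at 30.8 and 55 CPM, 1.78-fold higher (1.52 to 2.10), the class where this c subunit gene was furthest above the control.

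Complex II remained higher in mature neutrophils, with a log2 ratio of 0.41 under TMM scaling and 0.52 after thinning. For complex I these were 0.05 and 0.06, and its sign depended on free RNA: subtracting a free RNA level set by hemoglobin genes gave -2.60, and left several complexes with no counts in this class. Hemoglobin stood in mature neutrophils at 53.3% of its level over all cells in the control and 79.9% in the T1D library. Different clusters held most of the class in the 2 libraries. Cluster 3 held 1959 control and 221 T1D cells, cluster 1 held 111 and 2578, cluster 2 held 80 and 2186, and cluster 27 held 76 and 86.

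Values by cluster, chosen after seeing the data, were less precise. Complex II was 1.35-fold higher in T1D in cluster 3 (1.03 to 1.73), 1.65-fold in cluster 2 (1.02 to 2.85, with 17 control counts), 1.22-fold in cluster 1 (0.855 to 1.79) and 1.15-fold in cluster 27 (0.746 to 1.79). Complex I was at a ratio of 1.05 in cluster 3 (0.952 to 1.15), 1.10 in cluster 1 (0.973 to 1.25), 1.02 in cluster 27 (0.889 to 1.17) and 1.56 in cluster 2 (1.29 to 1.91). The higher complex I level of the class thus exceeded counting error in cluster 2 alone of the 4. Complex IV was lower beyond counting error in clusters 1, 3 and 27 and at a ratio of 0.952 in cluster 2 (0.810 to 1.13). Of 8 mature neutrophil markers, 7 were lower in T1D, with sums of 50755 and 39544 CPM and none at 0, and their part in the result was not tested.

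Immature neutrophils shared the complex II pattern in 2 subunits. The complex stood at 132 and 160 CPM, 1.22-fold higher in T1D (1.13 to 1.31), with a log2 ratio of 0.22 under TMM scaling and -0.01 after subtracting the free RNA level set by hemoglobin genes. Sdha stood at 46.9 and 63.6 CPM, 1.36-fold higher (1.20 to 1.53), and Sdhd at 28.6 and 38.7 CPM. Sdhb and Sdhc, chosen after their values were seen, stood at 29.5 and 28.4 CPM and at 26.5 and 29.3 CPM. In erythroid cells complex II was at 515 and 463 CPM, a ratio of 0.899 (0.817 to 0.988). It was above 1 there (log2 ratio 0.11) when the free RNA level was set by plasma cell genes. Those genes stood in erythroid cells at 1.21% of their level over all cells in the control and 37.5% in the T1D library. In the other 7 classes the interval of complex II included 1.

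B cells had members well below the control, and their level depended on the cluster. Ndufs8 had the lowest log2 ratio of members in B cells, at 42.1 and 7.39 CPM, 5.70-fold lower (2.99 to 12.2). By the rule of size 3 members were lower (3.66% of members against 1.34% of all genes): Cox8a at 136 and 61.4 CPM, 2.21-fold lower (1.74 to 2.84), Cox6b1 at 123 and 57.7 CPM, and Ndufb5, an accessory subunit of complex I, at 52.2 and 20.7 CPM. Of the 2 B cell clusters with at least 100 cells in both libraries, the summed members were at 5899 and 3679 CPM in one (interval of the ratio 0.592 to 0.657) and at 4566 and 4082 CPM in the other (0.858 to 0.931). The markers of the class were lower in T1D in 7 of 8, with sums of 12376 and 8429 CPM and none at 0. Hemoglobin stood at 65.1% of its level over all cells in control B cells and at 19.1% in T1D B cells, and subtracting that much free RNA turned the median log2 ratio of the members to 1.51. How far markers and free RNA enter the B cell values was not tested further.

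Few members passed the rule of size in the other classes. In T or NK cells 2 passed as lower (2.44% against 0.768% of all genes): Uqcrb, at 55.6 and 24.4 CPM, 2.28-fold lower (1.56 to 3.36), and Atp5g1, at 56.3 and 23.9 CPM, 2.36-fold lower (1.61 to 3.49). In macrophages or conventional dendritic cells 2 passed (2.44% against 1.09%): Ndufs8, at 56.5 and 15.4 CPM, and Uqcrq, at 97.7 and 46.1 CPM. In basophils or mast cells 2 passed (2.44% against 1.58%): Ndufa13, at 118 and 36.3 CPM, and Cox7a2, at 95.6 and 38.7 CPM. Each of these shares rests on 2 members.

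In erythroid cells only Cox7a2 passed by size (1.22% against 0.369%), at 181 and 85.6 CPM, 2.12-fold lower (1.73 to 2.61). No member passed in mature neutrophils, immature neutrophils, granulocyte-monocyte progenitors, monocytes or stem or multipotent progenitors, where 0.895%, 0.117%, 0.225%, 0.431% and 0.218% of all genes passed as lower. No member passed as higher in any of the 10 classes. The background of that direction was 0.179% in B cells, 0.589% in T or NK cells, 0.545% in mature neutrophils, 0.319% in immature neutrophils and 0.225% in granulocyte-monocyte progenitors. It was 0.875% in monocytes, 0.997% in macrophages or conventional dendritic cells, 1.22% in basophils or mast cells, 0.619% in erythroid cells and 0.484% in stem or multipotent progenitors. The class-wide differences were thus spread over many members with small ratios.

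Monocytes were split by cluster. The class stood at a ratio of 0.825 (0.818 to 0.833). Cluster 5, with 648 control and 841 T1D cells, had summed members at 11871 and 9790 CPM, a log2 ratio of -0.28. Cluster 8, with 196 and 1144 cells, was at 7692 and 7760 CPM (interval of the ratio 0.985 to 1.03), and cluster 10 held 841 control and 99 T1D cells. The lower level of the whole class therefore did not hold in cluster 8, and the clusters took unequal parts of the class in the 2 libraries. Over the 17 clusters with at least 100 cells in both libraries, the members' median log2 ratio was below that of all genes in 15, and the summed ratio had an interval below 1 in 12 and above 1 in none.

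**Figure D4:**
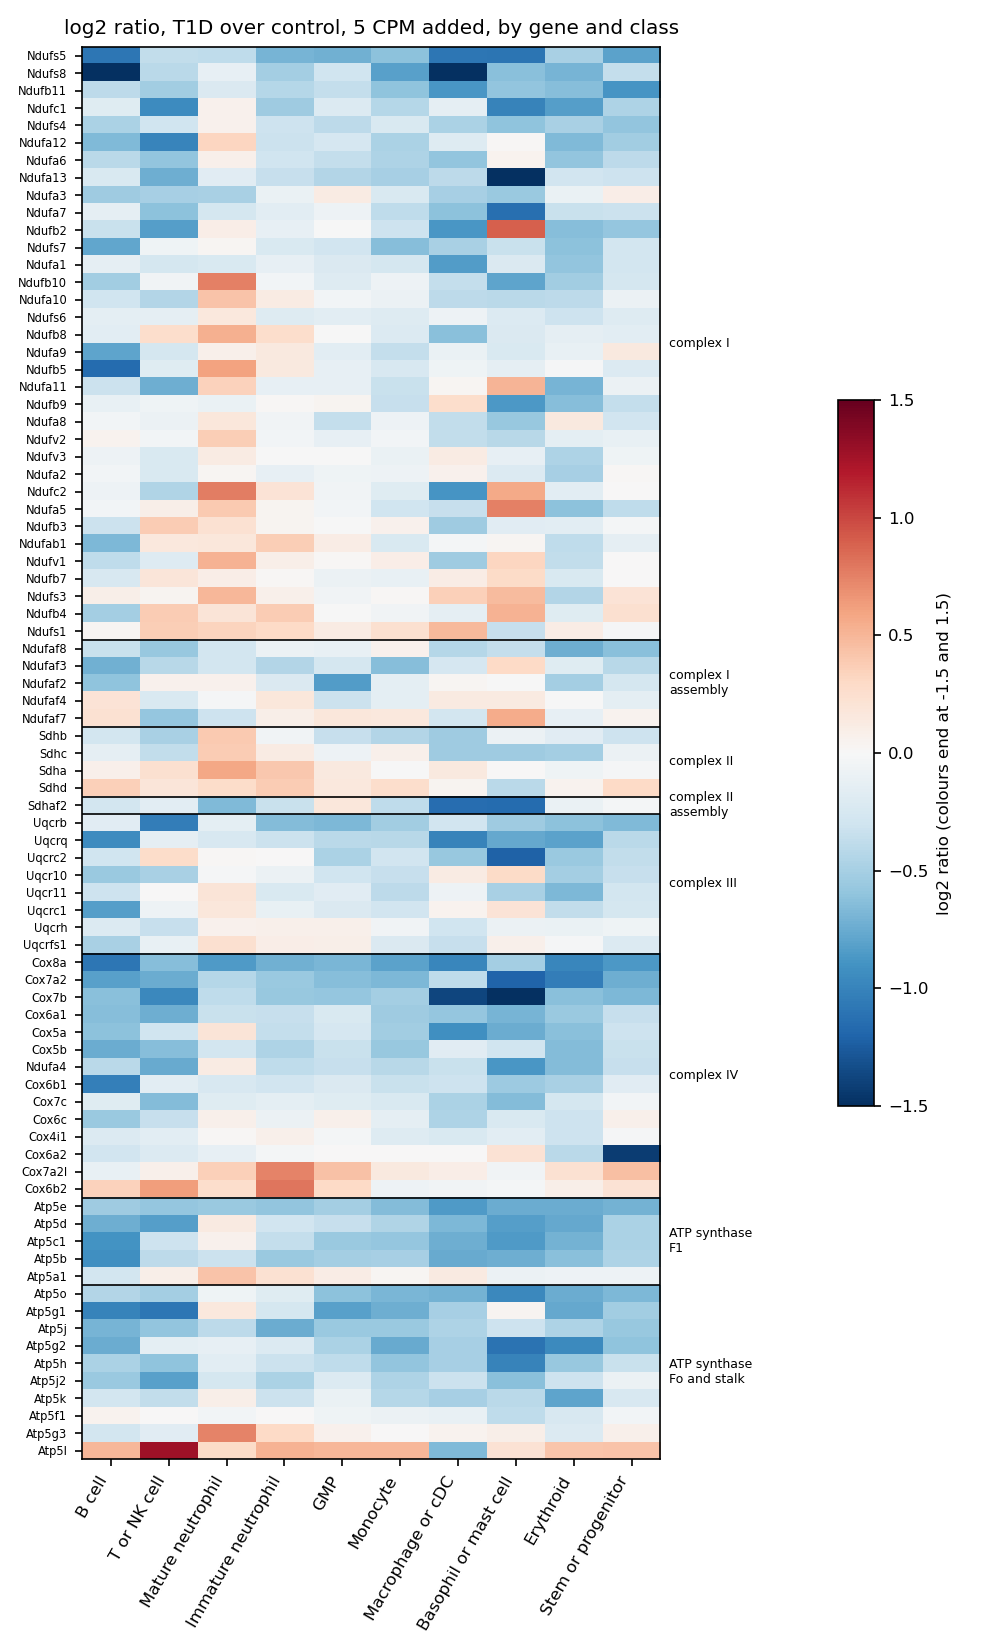
Log2 ratio of T1D over control, with 5 CPM added, for 81 of the 82 members (vertical, grouped by complex) in the 10 classes compared (horizontal), with colours ending at -1.5 and 1.5. Of all 82, 22 (26.8%) have a ratio below 1 in all 10 classes, against 6.13% of all genes, and Atp5l and Sdhd are above 1 in 9 as measured and in 7 after thinning.

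Across classes, 4 members (4.88%) had an interval below 1 in all 10, against 0.746% of all genes of at least 10 CPM over all cells: Atp5b, Atp5e, Atp5h and Cox6a1. The ratio was below 1 in all 10 classes for 22 members (26.8%) against 6.13% of all genes, and in at least 8 for 49 (59.8%) against 26.2%. No member had an interval or a ratio above 1 in all 10, where 0.61% and 6.1% of all genes did. Atp5e ranged from a ratio of 0.532 in macrophages or conventional dendritic cells (107 and 56.7 CPM) to 0.695 in granulocyte-monocyte progenitors (199 and 138 CPM). Atp5b ranged from 0.513 in B cells (140 and 71.7 CPM) to 0.785 in mature neutrophils (59.5 and 46.7 CPM). Atp5h was closest to equality in mature neutrophils, at 98.3 and 87.3 CPM, a ratio of 0.888 (0.804 to 0.981). Cox6a1 was closest in granulocyte-monocyte progenitors, at 365 and 311 CPM. The list of members with an interval below 1 in all 10 classes thus held ATP synthase subunits of the head, central stalk and outer stalk and 1 subunit of complex IV.

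Cox8a was lower in all 10 classes, with an interval that included 1 in basophils or mast cells only (136 and 94.3 CPM, 0.466 to 1.02). Its log2 ratio was -0.98 in erythroid cells (263 and 131 CPM) and -0.81 in monocytes (245 and 138 CPM). Atp5j was the lowest member by log2 ratio in immature neutrophils, at -0.75, and Ndufs8 in monocytes, at 61.3 and 32.8 CPM. Ndufaf2 was the lowest in granulocyte-monocyte progenitors, at -0.84.

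Few members stood mostly higher. The ratio was above 1 in at least 8 of 10 classes for 5 members (6.10%), against 21.9% of all genes: Atp5l and Sdhd in 9, and Cox7a2l, Ndufs1 and Ndufs3 in 8. After thinning these counts were 7 for Atp5l and Sdhd, 5 for Cox7a2l, 6 for Ndufs1 and 8 for Ndufs3. Sdhd stood at 67.8 and 82.2 CPM in monocytes, 1.21-fold higher (1.09 to 1.35), and at 114 and 141 CPM in stem or multipotent progenitors, 1.24-fold higher (1.08 to 1.42). Ndufs1 stood at 65.9 and 78.5 CPM in monocytes and at 42.3 and 53.2 CPM in immature neutrophils.

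Cox7a2l stood furthest above the control in immature neutrophils, at 33.5 and 59.5 CPM, 1.78-fold higher (1.55 to 2.04). It stood at 130 and 179 CPM in stem or multipotent progenitors. Atp5l, the highest member by log2 ratio in monocytes, B cells and granulocyte-monocyte progenitors, stood in monocytes at 12.6 and 19.9 CPM, 1.58-fold higher (1.25 to 2), and in T or NK cells at 6.33 and 22.2 CPM. In all, 17 members (20.7%) had an interval below 1 in a class and above 1 in another, no larger a share than the 26.5% of all genes.

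For 2 members, Cox6a2 and Cox6b2, the highest class held at least 5 times the level of the median class in both libraries. Both are isoforms of complex IV subunits with a narrow tissue range, Cox6a2 in heart and skeletal muscle beside the common Cox6a1, and Cox6b2 in testis beside the common Cox6b1. Cox6a2 was the only member among the variable genes used to form clusters, and leaving the members out of clustering gave a fold difference of 4.60 for it in place of 4.59.

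Cox6a2 marked plasmacytoid dendritic cells in the control library. There it held 597 counts in 232 of 503 cells (46.1%, exact binomial interval 41.7 to 50.6), or 249 CPM. In the T1D library it held 23 counts in 14 of 98 cells (14.3%, 8.04 to 22.8), or 54.3 CPM, 4.59-fold lower (3.03 to 7.30), and 7 of those counts were in 1 cell. Mature neutrophils, which should lack the gene, held it in 3 of 2226 control cells (0.135%) and in 0 of 5071 T1D cells, a count that allows up to 0.0592%. Median counts per cell were 4038 and 3608 in plasmacytoid dendritic cells and 2573.5 and 2165 in mature neutrophils. The gene was therefore above background in both libraries and lower in the T1D cells.

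Thinned to 1000 counts per cell, 106 of 503 control cells (21.1%) and 1 of 98 T1D cells (1.02%) held a Cox6a2 count. In thinned counts drawn separately, Cox6a2 held 148 and 7 counts, or 294 and 71.4 CPM, 4.12-fold lower (1.95 to 10.4). The thinned T1D share thus rests on 1 cell and the thinned T1D level on 7 counts. Of the 7 markers of the class, which leave Cox6a2 out, 6 were lower in T1D, with sums of 8415 and 6607 CPM and none at 0. Siglech stood at 1946 and 1354 CPM, Klk1 at 235 and 44.8 CPM and Tcf4 at 802 and 863 CPM, and the part of these differences in that of Cox6a2 was not tested. Outside the class, 12 of 404 control stem or multipotent progenitors (2.97%) held 30 counts, against 0 of 483 T1D cells, a count that allows up to 0.621%. Over all kept cells Cox6a2 was at 666 and 28 counts, 21.5-fold lower in T1D (14.7 to 32.5), and the T1D library had 98 plasmacytoid dendritic cells to 503 in the control. Cox6a2 became a member through the control library alone, where it is high, so this fold is not independent of the rule for members.

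Other members in plasmacytoid dendritic cells, a class under 100 cells in T1D and so given as levels only, included 3 past the rule of size (3.66% against 1.46% of all genes). Besides Cox6a2 these were Atp5e, at 149 and 68.4 CPM, 2.18-fold lower (1.49 to 3.31), and Atp5g1, at 66.8 and 21.2 CPM, 3.14-fold lower (1.62 to 7). Megakaryocytes, with 85 and 96 cells, had 7 members past that rule (8.54% against 2.11%), among them Uqcrb, at 171 and 49.97 CPM, and Atp5o, at 159 and 61.9 CPM. Plasma cells, with 69 and 91 cells, had 2 lower (2.44% against 1.27%), Cox8a at 80.3 and 37.5 CPM and Atp5o at 70.0 and 17.5 CPM. There 1 member passed as higher (1.22% against 2.16%). The interval was below 1 for 17 members (20.7%) against 9.47% of all genes in plasmacytoid dendritic cells, for 25 (30.5%) against 9.55% in megakaryocytes and for 4 (4.88%) against 5.12% in plasma cells. It was above 1 for 5 (6.10%) against 11.6%, 1 (1.22%) against 6.32% and 3 (3.66%) against 9.01%. No member passed the rule of size as higher in plasmacytoid dendritic cells or megakaryocytes, where 1.05% and 1.27% of all genes did.

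Cox6b2 was a feature of erythroid cells in both libraries and did not differ there beyond counting error. It stood at 82.7 and 88.4 CPM (202 and 128 counts), a ratio of 1.07 (0.850 to 1.34). It was counted in 38.3% of control and 31.0% of T1D erythroid cells, and in 8.33% and 9.80% after thinning. The share in mature neutrophils was 0.0898% and 0.276%. Megakaryocytes held it in 11.8% and 5.21% of cells (10 of 85 and 5 of 96). It was counted in 9.18% and 7.77% of granulocyte-monocyte progenitors and in 7.43% and 6.83% of stem or multipotent progenitors.

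In immature neutrophils Cox6b2 was the highest member by log2 ratio, at 4.59 and 11.7 CPM, 2.55-fold higher in T1D (1.79 to 3.70), in 1.42% and 2.69% of cells. Its common partner Cox6b1 stood there at 131 and 107 CPM (interval of the ratio 0.750 to 0.883), on the other side of equality. Over all cells Cox6b1 was at 180 and 140 CPM and Cox6b2 at 9.27 and 10.8 CPM.

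**Figure D5:**
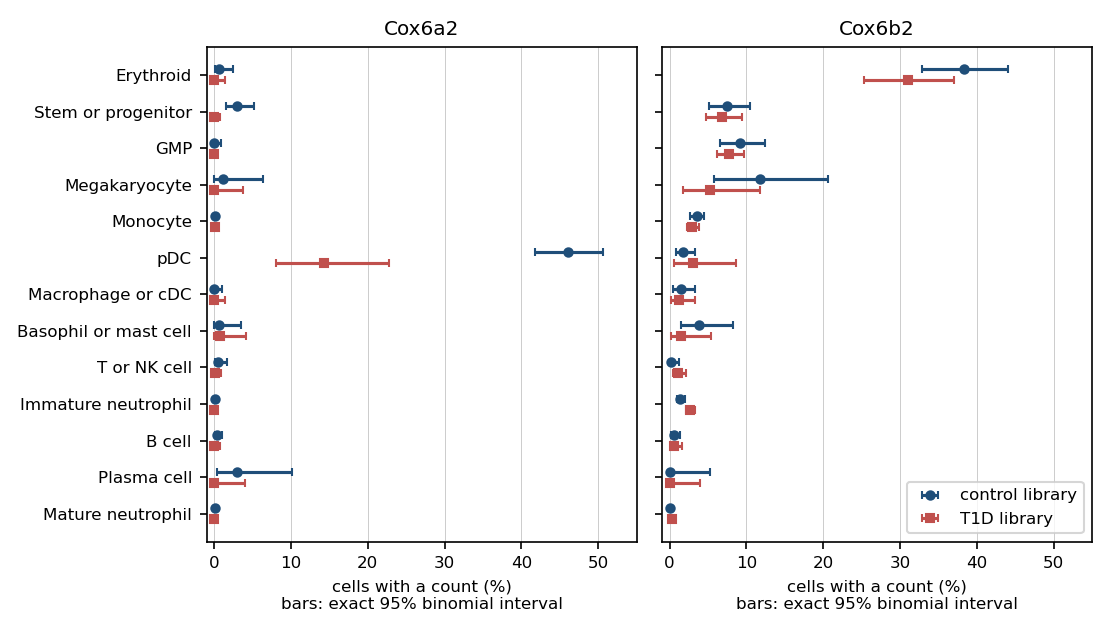
Percent of cells with at least 1 count of Cox6a2 and of Cox6b2 in each class and library, with exact binomial 95% intervals (counting error only). Cox6a2 reaches 46.1% of control and 14.3% of T1D plasmacytoid dendritic cells, and Cox6b2 reaches 38.3% and 31.0% of erythroid cells.

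Other genes of the pathway were counted from lists of their own, over genes of at least 10 CPM. Of all genes, 66.0% had a log2 ratio below 0 over all cells. Of electron carriers and chain partners 11 of 13 were lower over all cells, with a median log2 ratio of -0.20, and of complex IV assembly factors 7 of 8 (-0.22). Cytochrome c itself, Cycs, named after its values were seen, stood at 64.8 and 30.01 CPM, 2.16-fold lower (2.03 to 2.29). Of citric acid cycle genes 11 of 16 were lower (-0.21), a share near that of all genes. Of mitochondrial ribosomal proteins 60 of 67 were lower (-0.28) and of import genes 17 of 19 (-0.22). These medians lay between those of the members (-0.31) and of all genes (-0.11).

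The partner subunits encoded by mitochondrial DNA were lower in 7 of 7 measured genes, at a summed 3118 and 1442 CPM and a median log2 ratio of -1.13. Of these, 6 passed the rule of size as lower, as did 0.963% of all genes. Proteasome subunits, housekeeping genes outside the mitochondrion listed for comparison, were lower in 16 of 16 (-0.34), a median close to that of the members. The 6 genes of the hypoxia switch and mitophagy list went the other way, with 4 higher and a median of 0.15. Genes that control the pathway (5 of 6 lower, -0.11) and mitochondrial antioxidants (5 of 6, -0.14) lay nearer to all genes, and carriers and uncoupling proteins were at -0.22, with 6 of 7 lower.

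In mature neutrophils, where complex II was higher, 8 of 9 citric acid cycle genes were also higher, with a median log2 ratio of 0.25. For all genes in this class the median was 0.04, and 46.2% were below 0. Other lists had medians above 0 there as well, on few genes. Hypoxia switch and mitophagy was at 0.37 (3 of 3 genes higher) and mitochondrial antioxidants at 0.23 (4 of 5). Electron carriers and chain partners were at 0.19 (5 of 8) and control genes at 0.19 (3 of 4). Medians were below 0 for complex IV assembly (-0.25, 3 of 4 genes lower) and import (-0.23, 5 of 8). They were also below 0 for mitochondrial ribosomal proteins (-0.03, 9 of 16) and carriers and uncoupling (-0.02, 3 of 6). Mitochondrially encoded genes were lower there too, in 7 of 7 (-0.57), and proteasome subunits were split 7 to 7 (0.03). In erythroid cells the median was -0.25 for citric acid cycle genes, -0.42 for mitochondrial ribosomal proteins, -0.92 for mitochondrially encoded genes and -0.42 for proteasome subunits, beside -0.46 for the members.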

How the data were processed

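Single cells of bone marrow were sequenced with the Singleron GEXSCOPE kit, and the authors deposited 1 table of whole-number counts per gene and barcode for each library, not normalized. Reads were demultiplexed with bcl2fastq 2.19 and assigned by featureCounts (build mm9), per the submitters' processing notes. How reads were aligned, on which annotation and strand, how cells were called and whether molecular identifiers were collapsed is not given in the sources used, and values are called counts.

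Filters asked for 200 genes per cell and no more than 20% counts of mitochondrial DNA, which removed 77 control and 192 T1D barcodes. The lowest total among kept cells was 1904 and 1369 counts. Scrublet in scanpy 1.11.5, at an expected rate of 6%, marked 1 and 2 cells, under the 0.5% at which it counts as having worked, so no doublet was removed. Counts were scaled to 10000 per cell and logged. From 2000 variable genes per library, 30 principal components and 15 neighbours, the Leiden method (igraph 0.11.9, resolution 1, the best of 10 starts by modularity) gave 35 clusters. A class name needed at least 3 markers at 2-fold. Names are rebuilt from markers, and 1553 control and 1434 T1D cells stayed unnamed.

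Sums of counts per class and library were turned into CPM. At the 95% level, ratios carry exact conditional binomial intervals, levels Poisson ones and shares Clopper-Pearson ones (scipy 1.17.1). A count of 0 was read as allowing up to 3. Log2 ratios had 5 CPM added. Scripts were tested on simulated data. TMM factors came from edgeR 4.0.16 and size factors from DESeq2 1.42.0, as scaling only. Other alternatives were a 10% mitochondrial limit, 1 CPM added, thinning to 1000 counts, ribosomal RNA left out, equal class weights, free RNA subtracted and marker-gated cells.

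Genes were named by rule: the 6 highest and 6 lowest members of at least 50 CPM, the member of each complex with the most counts, members past the rule of size, members restricted to a class with their paralogs, members alike in every class, and the highest and lowest members of the 5 largest classes. Members and lists were chosen with earlier results of these data known. The values of 1 member are not reported here by name, and it is counted in the sums.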

Additional observations from a re-analysis of the deposited data

Results flagged for a closer look

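The summed subunits of complex I were lower in T1D in erythroid cells, with a log2 ratio of -0.35, and higher in mature neutrophils, with 0.12. Complex II was likewise lower in erythroid cells, with -0.15, and higher in mature neutrophils, with 0.48. Each was singled out because the same contrast pointed in opposite directions in these classes, each with a counting interval that excluded 1. These signs were not all stable. Complex II in erythroid cells was above 1 when free RNA set by plasma cell genes was subtracted. Complex I in mature neutrophils was lower when free RNA set by hemoglobin genes was subtracted. Of the mature neutrophil clusters, complex I was higher beyond counting error in cluster 2 alone (1.56, 1.29 to 1.91). There was 1 library per group, and the difference between the classes was not tested.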

How the results depend on the processing

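The median log2 ratio of the members over all kept cells, -0.31, was -0.19 with TMM factors (all genes 0.01) and -0.20 with DESeq2 size factors (all genes 0.00). It lay between -0.34 and -0.25 with 10% mitochondrial counts, 1 CPM added, thinning, ribosomal RNA left out, equal class weights and, chosen after seeing the data, without the cluster rich in hemoglobin and ribosomal RNA. Lowering the size rule from 2-fold to 1.5-fold gave 8 members as lower (9.76% against 3.05% of all genes) in place of 0, and none as higher (1.22% of all genes). The members' median was below that of all genes in 9 of 10 classes; it was so in 7 of 9 at the free RNA level set by hemoglobin, where the B cell median turned to 1.51, and in 1 of 1 with marker-gated cells, where only immature neutrophils kept 100 cells in both libraries. The highest class held 5.10 times the lowest in the control and 3.95 times in T1D; these were 4.76 and 3.44 without ribosomal RNA and 4.92 and 3.83 after thinning. Complex II over all cells turned from -0.04 to 0.10 (TMM), 0.089 (DESeq2), 0.041 (ribosomal RNA left out), 0.041 (thinned) and 0.049 (equal weights). Atp5a1 turned to 0.023, 0.013 and 0.043 and Atp5f1 to 0.028 and 0.018 under TMM, DESeq2 and, for Atp5a1, equal weights. Ndufv3 turned to -0.0046 under equal weights. Of 296 single values under alternatives 11 reversed, those of complex II, Atp5a1, Atp5f1 and Ndufv3 listed here, and of 70 class medians 1 did. Outside this count, Cox7a2l and Ndufaf7 also changed sign after thinning. Subtracting free RNA also changed the sign of complex I in mature neutrophils and of complex II in immature neutrophils and erythroid cells. The causes were not tested. Leaving out a replicate was not possible with 1 library per group. No paired analysis was possible because each group had 1 library. Depth limits sparse members such as Atp5l, Cox6b2 and, in T1D, Cox6a2.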
